A study of Mus musculus with 2 samples.

Results

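The tumour necrosis factor (TNF) ligands and their receptors were followed in M-MDSCs, monocytic myeloid-derived suppressor cells, grown from bone marrow with or without CHBP, a cyclic peptide derived from erythropoietin that does not stimulate red cell production. Members were taken by symbol from the deposited gene table: names that begin Tnfsf or Tnfrsf followed by a digit, together with Tnf, Lta, Ltb, Ltbr, Fas, Fasl, Cd27, Cd70, Cd40lg and Ngfr. This gave 42 of 34745 listed genes, of which 17 encode ligands, 24 encode receptors and 1, Tnfsf13os, is an antisense transcript at a ligand locus.

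TNF family ligands are mostly membrane proteins that act as trimers, on the cell surface or after shedding, and they cluster their receptors on the receiving cell. Receptors with a death domain can recruit FADD and caspase-8 or feed NF-kappaB, receptors without one bind TRAF adaptors, and decoy receptors bind ligand without passing on a death signal. In myeloid cells TNF is a major product of activation, and TNFR2 (Tnfrsf1b) is known for a part in the survival and suppressive activity of MDSCs.

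Mouse bone marrow was cultured for 7 days with GM-CSF alone (CHBP- M-MDSC) or with GM-CSF and CHBP (CHBP+ M-MDSC), and the cells were then sorted, M-MDSCs being CD11b+, Ly6G- and Ly6C high. Both groups thus received GM-CSF. The strain is labelled C57BL/6 for the former and C57BL/7 for the latter, and the number of animals is not stated. There is 1 library per group, so that strain label, culture, sort and library cannot be told apart from CHBP, and no difference below has a replicate check.

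Counted reads numbered 16484504 for CHBP- and 16280466 for CHBP+ M-MDSC, so a gene without a read could still be present at up to 0.182 and 0.184 CPM, reads scaled to the library total, which is the level of 3 reads. The sort markers went in different directions. Ly6c2 had 4091 and 2411 reads (0.597, 0.567 to 0.628) and Ly6g 46 and 44, while Itgam, the gene of CD11b, had 18653 and 27265 reads (1.48, 1.45 to 1.51) in its better covered entry and 8703 and 13147 in another. Of other monocyte markers, Csf1r (1.11), Adgre1 (1.16) and Ccr2 (1.17) had higher read ratios and Lyz2 (0.803) and Cd14 (0.865) lower ones. The part of the sort in the values of the TNF family was not tested. Summed CPM in CHBP- and CHBP+ M-MDSC was 738 and 698 for 9 mast cell and basophil markers, 1911 and 1364 for 10 granulocyte markers, 2615 and 2372 for 10 dendritic cell markers, and 1705 and 686 for 6 erythroid markers, of which Hbb-bs alone gave 1228 and 368. It was 13.0 and 14.2 for 8 NK cell markers, of which the defining Ncr1 had no read. S100a9 gave 924 and 682 CPM of the granulocyte sum, and S100a8 567 and 384. Of markers at 1 FPKM or more in either library, 2 mast cell and basophil and 1 dendritic cell marker had an interval above 1. Those with an interval below 1 numbered 4 mast cell and basophil, 7 granulocyte, 5 dendritic cell and 5 erythroid markers. Ms4a2 (2.48) and Itgax (1.33) were among those above 1. Where markers were lower, fewer cells of a type and less RNA per cell cannot be told apart in these bulk libraries. Log2 ratios of FPKM + 1 also moved with transcript length, as described further on. With the longest-transcript trend removed, the median went from -0.40 to -0.15 for granulocyte and from -0.58 to -0.31 for erythroid markers. It went from -0.11 to -0.02 for mast cell and basophil markers and from -0.09 to -0.10 for dendritic cell markers. The part of length in the marker values was not tested.

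For each member the value in CHBP- M-MDSC comes before that in CHBP+. The read ratio is the CPM of CHBP+ over that of CHBP- M-MDSC, with an exact 95% Clopper-Pearson interval in brackets. Reads are not independent molecules, so the intervals cover counting error only. FPKM is the deposited level per length and library total, and the log2 ratio is that of FPKM + 1, which understates the change of low genes. Genes that reached 1 FPKM in either library were counted as different when FPKM + 1 differed at least 1.5-fold. Levels of different genes are compared only as RPKM, computed here from the reads and the longest GENCODE M1 transcript, because the lengths behind the deposited FPKM were not always transcript lengths.

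Most of the family was detected, and few members were counted as different, as was so for all genes. Of the 42 members, 29 reached 1 FPKM in either library, 11 had reads but stayed below it, and 2 had no read. Of the 29, 2 passed only through CHBP+ (Tnfsf4 and Tnfsf10) and 1 only through CHBP- M-MDSC (Tnfrsf4), so the direction of these is partly set by the filter. None was at least 1.5-fold higher in CHBP+ M-MDSC, against 3.42% (374) of the 10948 genes that passed, and 1, Ltb, was at least 1.5-fold lower, against 2.89% (316). With a trend with longest transcript removed, described further on, the counts were 229 higher and 111 lower over 10508 genes with such a length. Of 28 members with one, 1 (Tnfrsf14) was then higher and none lower. The read-ratio interval lay above 1 for 7 members, beside 27.9% of all genes, and below 1 for 9, beside 31.0%. The median log2 ratio was -0.11 for 11 ligands and -0.01 for 18 receptors, beside -0.03 for all genes. With the length trend removed both medians turned positive, at 0.15 for 10 ligands (7 above 0 and 3 below) and 0.03 for the receptors, beside -0.009 for all genes. With a trend with the length implied by reads and FPKM removed instead, they were 0.05 for 11 ligands and 0.06 for the receptors. The median of all genes was then -0.02. The order of ligands and receptors thus depended on the length used.

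**Figure D1:**
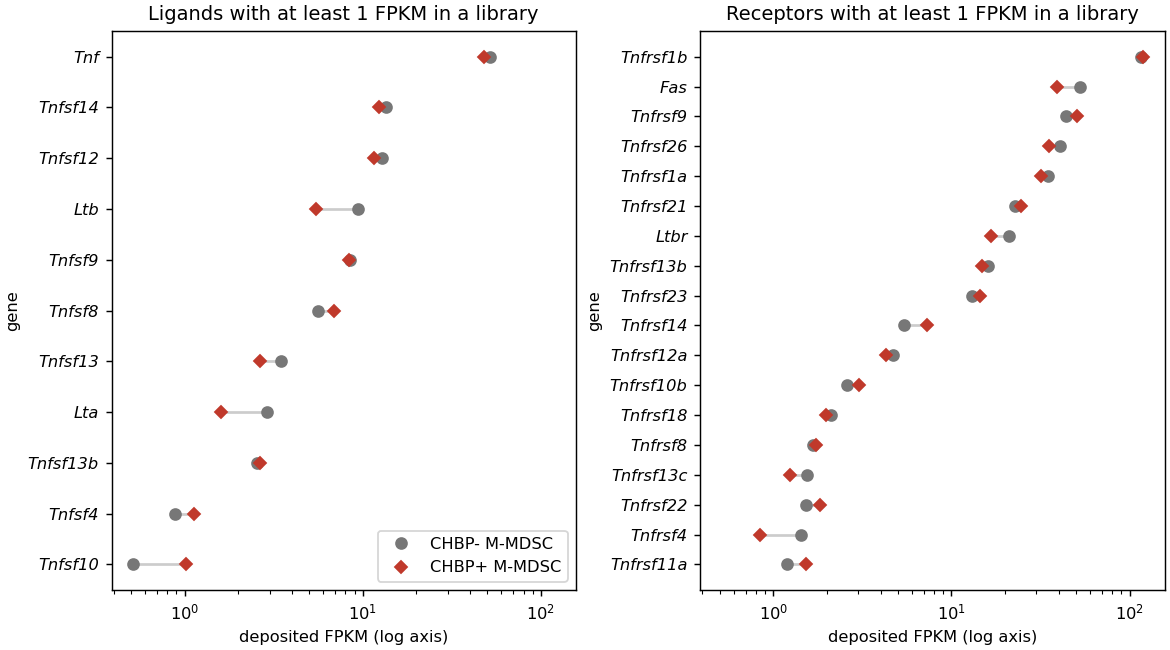
Deposited FPKM (log axis) of the ligands (left) and receptors (right) that reached 1 FPKM in either library, with separate symbols for CHBP- M-MDSC and CHBP+ M-MDSC, 1 library each. Tnf and Tnfrsf1b lead their panels in both libraries, and Ltb goes from 9.36 to 5.49 FPKM.

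The lymphotoxins had the lowest log2 ratios of FPKM + 1 in the family, before any removal of the length trend. Ltb, Tnf and Lta lie side by side within 10.9 kb of chromosome 17 (35194439 to 35205351 in the deposited coordinates, which match GRCm38). Lymphotoxin alpha and beta form a membrane trimer that signals through the lymphotoxin beta receptor and is known for lymphoid organ development, and lymphotoxin alpha alone is a soluble ligand of the TNF receptors. The promoters of the 3 genes are shown because neighbours in this short block differed in their read ratios. Each is the RefSeq GRCm38.p6 sequence from 250 bases before to 50 bases after the annotated start, at chr17:35194257-35194556 on the plus strand for Ltb and on the minus strand at chr17:35201958-35202257 for Tnf and chr17:35205302-35205601 for Lta. Capitals mark TATAAA, searched on both strands.
Ltb: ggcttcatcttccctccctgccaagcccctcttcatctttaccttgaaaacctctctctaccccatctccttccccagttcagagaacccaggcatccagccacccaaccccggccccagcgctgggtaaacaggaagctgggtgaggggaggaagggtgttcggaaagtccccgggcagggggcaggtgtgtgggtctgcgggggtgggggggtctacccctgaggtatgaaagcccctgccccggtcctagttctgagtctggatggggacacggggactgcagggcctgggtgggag
Tnf: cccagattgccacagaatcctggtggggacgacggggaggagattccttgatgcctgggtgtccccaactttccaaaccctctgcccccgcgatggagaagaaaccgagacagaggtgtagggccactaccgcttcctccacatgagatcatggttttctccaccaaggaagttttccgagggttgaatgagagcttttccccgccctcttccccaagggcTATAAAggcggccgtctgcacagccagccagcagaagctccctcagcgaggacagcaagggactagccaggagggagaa
Lta: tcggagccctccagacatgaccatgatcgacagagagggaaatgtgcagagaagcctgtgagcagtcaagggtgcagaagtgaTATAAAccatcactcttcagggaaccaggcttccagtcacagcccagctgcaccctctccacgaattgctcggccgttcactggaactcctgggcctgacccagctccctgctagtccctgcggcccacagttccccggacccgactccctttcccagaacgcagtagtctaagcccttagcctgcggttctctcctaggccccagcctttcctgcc
TATAAA began at position -29 from the start of Tnf and -167 from that of Lta, and these letters were not in the Ltb window. Over 32851 RefSeq promoters of this length 13.6% held them, and 6 of the 32 members with a promoter sequence did. The pattern was chosen with the values known and is a description of these letters.

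Ltb (ENSMUSG00000024399) had 537 and 311 reads, or 9.36 and 5.49 FPKM (log2 ratio -0.67, read ratio 0.586, 0.508 to 0.676). Lta (ENSMUSG00000024402) had 66 and 36 reads, or 2.89 and 1.60 FPKM (log2 ratio -0.58, read ratio 0.552, 0.357 to 0.841). Both were lower in CHBP+ M-MDSC by more than counting error, and Lta, at 1.4987-fold lower, lay just outside the threshold that Ltb passed at 1.60-fold. Tnf (ENSMUSG00000024401), between them, had 2605 and 2378 reads, or 51.9 and 48.0 FPKM (log2 ratio -0.11, read ratio 0.924, 0.874 to 0.978). At 96.4 and 89.1 RPKM, against 23.0 and 13.5 RPKM for Ltb, it was the most abundant ligand in both libraries and held 54.4% and 54.7% of all ligand reads.

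Within a library, Ltb had 0.206 reads per Tnf read in CHBP- and 0.131 in CHBP+ M-MDSC, and the latter over the former was 0.634 (exact conditional 95% interval 0.544 to 0.739). For Lta against Tnf this was 0.598 (0.385 to 0.914), and for Ltb against Lta 1.06 (0.679 to 1.68). The lymphotoxins thus differed from their neighbour Tnf by more than counting error, whereas the interval between the lymphotoxins was wide and included 1.

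Markers of lymphocytes, which are known to make lymphotoxin, were also measured, although a CD11b+ Ly6G- Ly6C high sort should remove most such cells. The 5 B cell markers reported here summed to 104 and 79.8 CPM. Cd79a had 444 and 248 reads (0.566, 0.482 to 0.662), Cd79b 479 and 311 reads (0.657, 0.568 to 0.760) and Ms4a1 449 and 352 reads (0.794, 0.688 to 0.915). Ebf1 had 71 and 68 reads (0.970, 0.685 to 1.37) and Pax5 268 and 320 reads (1.21, 1.02 to 1.43), so that 3 of the 5 had an interval below 1 and 1 above. The 8 T cell markers summed to 20.6 and 17.6 CPM, with Cd3d at 17 and 8 reads, Cd3g at 17 and 7 and Cd3e at 8 and 14. Their part in the lymphotoxin values was not tested.

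TRAIL and Fas ligand were scarce. TRAIL (Tnfsf10, ENSMUSG00000039304), which triggers apoptosis through Tnfrsf10b, had 48 and 95 reads, or 0.511 and 1.02 FPKM (log2 ratio 0.42, read ratio 2.00, 1.40 to 2.90). It was thus higher in CHBP+ M-MDSC by more than counting error while staying near 1 FPKM. Fasl, the ligand of Fas, had 8 and 9 reads (1.14, 0.390 to 3.39), and a difference was not detectable at this depth.

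Costimulatory ligands act mainly on activated lymphocytes. LIGHT (Tnfsf14) had 414 and 373 reads, or 13.5 and 12.3 FPKM (log2 ratio -0.12, read ratio 0.912, 0.791 to 1.05), and 4-1BB ligand (Tnfsf9), whose span overlaps Gm11110 with 120 and 106 reads, had 172 and 167 reads, or 8.48 and 8.34 FPKM (log2 ratio -0.02, read ratio 0.983, 0.790 to 1.22). Neither interval was clear of 1. CD30 ligand (Tnfsf8, ENSMUSG00000028362) had 351 and 430 reads, or 5.59 and 6.94 FPKM (log2 ratio 0.27, read ratio 1.24, 1.07 to 1.43), which was higher in CHBP+ M-MDSC by more than counting error. OX40 ligand (Tnfsf4) had 27 and 34 reads, or 0.889 and 1.13 FPKM (log2 ratio 0.18, read ratio 1.28, 0.747 to 2.20). TL1A (Tnfsf15, ENSMUSG00000050395), the ligand of DR3, stayed under 1 FPKM with 16 and 45 reads, or 0.290 and 0.826 FPKM (log2 ratio 0.50, read ratio 2.85, 1.58 to 5.40). GITR ligand (Tnfsf18) had no read, which allows up to 0.0881 and 0.0892 RPKM, and Cd40lg (2 and 2 reads) and Cd70 (1 and 0 reads) were near the limit of detection.

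BAFF (Tnfsf13b) and APRIL (Tnfsf13) sustain B cells and plasma cells. BAFF had 39 and 40 reads, or 2.54 and 2.64 FPKM (log2 ratio 0.04, read ratio 1.04, 0.651 to 1.66), and APRIL had 147 and 111 reads, or 3.46 and 2.65 FPKM (log2 ratio -0.29, read ratio 0.765, 0.592 to 0.985). TWEAK (Tnfsf12), the ligand of Fn14, had 340 and 300 reads, or 12.9 and 11.5 FPKM (log2 ratio -0.15, read ratio 0.893, 0.762 to 1.05). Tnfsf12, Tnfsf13, the read-through gene Tnfsfm13 (408 and 401 reads) and the antisense Tnfsf13os (24 and 11 reads) share spans on chromosome 11, and how shared exons or strands were counted is not stated. Summed over these 4 genes the locus had 919 and 823 reads (0.907, 0.824 to 0.997), so the values of its single genes are uncertain. RANKL (Tnfsf11), the osteoclast factor, had 20 and 19 reads (0.962, 0.486 to 1.90).

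**Figure D2:**
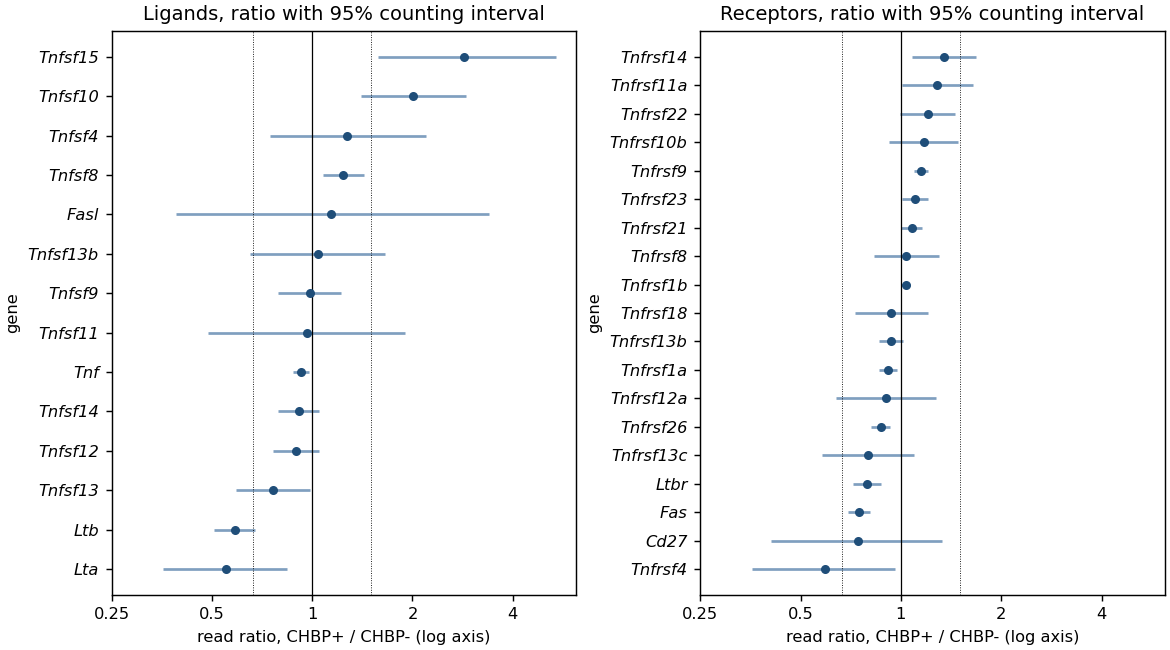
Read ratio (CPM of CHBP+ over CHBP- M-MDSC, log axis) of ligands (left) and receptors (right) with at least 10 reads over both libraries, with points for the ratio and bars for the exact 95% Clopper-Pearson interval, which covers counting error only, and dotted lines at 1.5-fold. Lta and Ltb sit lowest among the ligands (0.552 and 0.586) and Tnfsf15 and Tnfsf10 highest (2.85 and 2.00), while the receptors lie between 0.591 for Tnfrsf4 and 1.35 for Tnfrsf14.

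Both receptors of TNF were abundant. TNFR2 (Tnfrsf1b, ENSMUSG00000028599), which binds TRAF adaptors, had 7477 and 7626 reads, or 116 and 120 FPKM (log2 ratio 0.05, read ratio 1.03, 1.00 to 1.07), and held 34.0% and 35.3% of all receptor reads. TNFR1 (Tnfrsf1a, ENSMUSG00000030341), which has a death domain, had 2170 and 1956 reads, or 35.0 and 31.9 FPKM (log2 ratio -0.13, read ratio 0.913, 0.858 to 0.971). There were 3.45 and 3.90 TNFR2 reads per TNFR1 read, a ratio of 1.13 (1.06 to 1.21) between the libraries, and as RPKM TNFR2 was 1.95 and 2.20 times as high as TNFR1. TNFR2 mRNA thus exceeded TNFR1 mRNA in both libraries. Their longest transcripts have 3818 and 2156 bases. With a trend with longest transcript removed the log2 ratio was -0.01 for TNFR2 and -0.003 for TNFR1. With a trend with the length implied by reads and FPKM removed instead, it was 0.11 and -0.06. Whether a shift of TNFR2 against TNFR1 remained thus depended on the length used.

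Among the other death domain receptors, Fas (ENSMUSG00000024778), which starts apoptosis on binding Fas ligand, had 1559 and 1150 reads, or 52.5 and 39.2 FPKM (log2 ratio -0.41, read ratio 0.747, 0.692 to 0.807). Its read ratio was the lowest of the 8 members with at least 1000 reads in both libraries, all of which stayed within 1.5-fold. By RPKM, Fas (63.6 and 47.5 RPKM) was above TNFR1 (61.1 and 55.7 RPKM) in CHBP- and below it in CHBP+ M-MDSC. This order depends on the longest transcripts used, of 1486 bases for Fas and 2156 for TNFR1. DR6 (Tnfrsf21) had 1357 and 1443 reads, or 22.7 and 24.4 FPKM (log2 ratio 0.10, read ratio 1.08, 0.999 to 1.16), and DR5 (Tnfrsf10b), the mouse TRAIL death receptor, had 136 and 157 reads, or 2.60 and 3.04 FPKM (log2 ratio 0.17, read ratio 1.17, 0.923 to 1.48). Both intervals included 1. DR3 (Tnfrsf25, 2 and 7 reads) and Ngfr (0 and 1 reads) were near the limit of detection.

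4-1BB (Tnfrsf9, ENSMUSG00000028965), a costimulatory receptor best known on activated T cells, had 3090 and 3514 reads, or 43.8 and 50.5 FPKM (log2 ratio 0.20, read ratio 1.15, 1.10 to 1.21), and at 88.6 and 102 RPKM was second to TNFR2 among receptors in both libraries. By deposited FPKM its rank among receptors was 3 in CHBP- and 2 in CHBP+ M-MDSC. Its read ratio was the highest of the 8 members with at least 1000 reads in both. Camta1, whose span overlaps it, had 125 and 128 reads. HVEM (Tnfrsf14, ENSMUSG00000042333), a receptor of LIGHT, had 146 and 194 reads, or 5.44 and 7.32 FPKM (log2 ratio 0.37, read ratio 1.35, 1.08 to 1.68). The lymphotoxin beta receptor (Ltbr, ENSMUSG00000030339), which LIGHT also binds, had 963 and 753 reads, or 21.1 and 16.7 FPKM (log2 ratio -0.32, read ratio 0.792, 0.719 to 0.872). These receptors of LIGHT lay on opposite sides of 1, each by more than counting error.

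OX40 (Tnfrsf4), a T cell costimulatory receptor, had 48 and 28 reads, or 1.43 and 0.847 FPKM (log2 ratio -0.40, read ratio 0.591, 0.357 to 0.961). GITR (Tnfrsf18), its neighbour within 15.1 kb of chromosome 4, had 134 and 124 reads, or 2.11 and 1.98 FPKM (log2 ratio -0.06, read ratio 0.937, 0.728 to 1.21), and CD30 (Tnfrsf8) had 157 and 161 reads, or 1.68 and 1.74 FPKM (log2 ratio 0.03, read ratio 1.04, 0.828 to 1.30). RANK (Tnfrsf11a), the receptor of RANKL on osteoclast precursors, had 123 and 156 reads, or 1.19 and 1.53 FPKM (log2 ratio 0.21, read ratio 1.28, 1.01 to 1.64). Fn14 (Tnfrsf12a), the receptor of TWEAK, had 75 and 67 reads, or 4.72 and 4.27 FPKM (log2 ratio -0.12, read ratio 0.905, 0.641 to 1.27). Of these 5, the interval lay below 1 for OX40 and above 1 for RANK. Their log2 ratios were -0.13 and 0.04 with the longest-transcript trend removed. With the implied-length trend removed they were -0.23 and 0.18. Cd27 had 30 and 22 reads and Tnfrsf19 1 and 1.

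Receptors of BAFF and APRIL are best known from B cells and plasma cells. TACI (Tnfrsf13b) had 1243 and 1147 reads, or 15.95 and 14.9 FPKM (log2 ratio -0.09, read ratio 0.934, 0.862 to 1.01), and BAFF receptor (Tnfrsf13c) had 94 and 74 reads, or 1.55 and 1.23 FPKM (log2 ratio -0.19, read ratio 0.797, 0.580 to 1.09). BCMA (Tnfrsf17) had no read, which allows up to 0.223 and 0.226 RPKM. TACI stood at 29.5 and 27.6 RPKM, the sixth of the receptors in both libraries, and its interval included 1.

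Tnfrsf26, Tnfrsf22 and Tnfrsf23 form a cluster of 78.2 kb on chromosome 7, in which Tnfrsf22 and Tnfrsf23 are known as decoy receptors of TRAIL. Tnfrsf23 had 955 and 1040 reads, or 13.0 and 14.4 FPKM (log2 ratio 0.13, read ratio 1.10, 1.01 to 1.21), and Tnfrsf22 had 206 and 245 reads, or 1.53 and 1.84 FPKM (log2 ratio 0.17, read ratio 1.20, 0.996 to 1.46). Tnfrsf26 (ENSMUSG00000045362) had 1990 and 1711 reads, or 40.6 and 35.3 FPKM (log2 ratio -0.19, read ratio 0.871, 0.816 to 0.929), opposite in direction to its neighbours. The reads of Tnfrsf26 per Tnfrsf23 read were 2.08 and 1.65, a ratio of 0.790 (0.707 to 0.882). These are close paralogs, and reads that match more than 1 of them may have been divided in the counting. Osteoprotegerin (Tnfrsf11b), the secreted decoy of RANKL, had 6 and 1 reads.

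Set out as known ligand and receptor pairs, 13 of 25 had both partners at 1 FPKM or more in both libraries. These included TNF with both of its receptors, LIGHT with HVEM and Ltbr, 4-1BB ligand with 4-1BB, TWEAK with Fn14, and BAFF with TACI. In 3 pairs only the receptor did (Fas, RANK and GITR), in 2 only the ligand (APRIL and BAFF towards BCMA), and in 3 neither. In the other 4, those of TRAIL and OX40 ligand, a partner reached it in 1 library only.

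Across all genes the log2 ratio moved with transcript length. Over 10508 genes, which share both libraries and are not independent, the rank correlation (Spearman) of log2 ratio with longest transcript was 0.658, and over 28 members it was 0.475. The longest transcripts of Ltb and Lta have 1417 and 1383 bases, and that of Tnfsf10 has 4993. With the trend removed the log2 ratio was -0.45 for Ltb, -0.35 for Lta, 0.08 for Tnf, -0.20 for Fas, 0.26 for Tnfsf10, 0.33 for Tnfrsf9 and 0.65 for Tnfrsf14. Ltb was then less than 1.5-fold lower, and Tnfrsf14 more than 1.5-fold higher. Of the 28 members, 21 lay within 1 SD (0.257) of the trend, beside 80.9% of all genes. Outside it were Lta and Ltb below, and Tnfrsf14, Tnfsf4, Tnfsf13b, Tnfrsf9 and Tnfsf10 above. Of these, Tnfsf4 (27 and 34 reads) and Tnfsf13b (39 and 40 reads) had few reads and read-ratio intervals that included 1. A trend with the length implied by reads and FPKM could differ from this. With that trend removed instead, Ltb was at -0.59, still past 1.5-fold, and Tnfrsf14 at 0.56, short of it. Where only a length trend is named, it is that with the longest transcript. The part of transcript length in these values was not tested further.

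**Figure D3:**
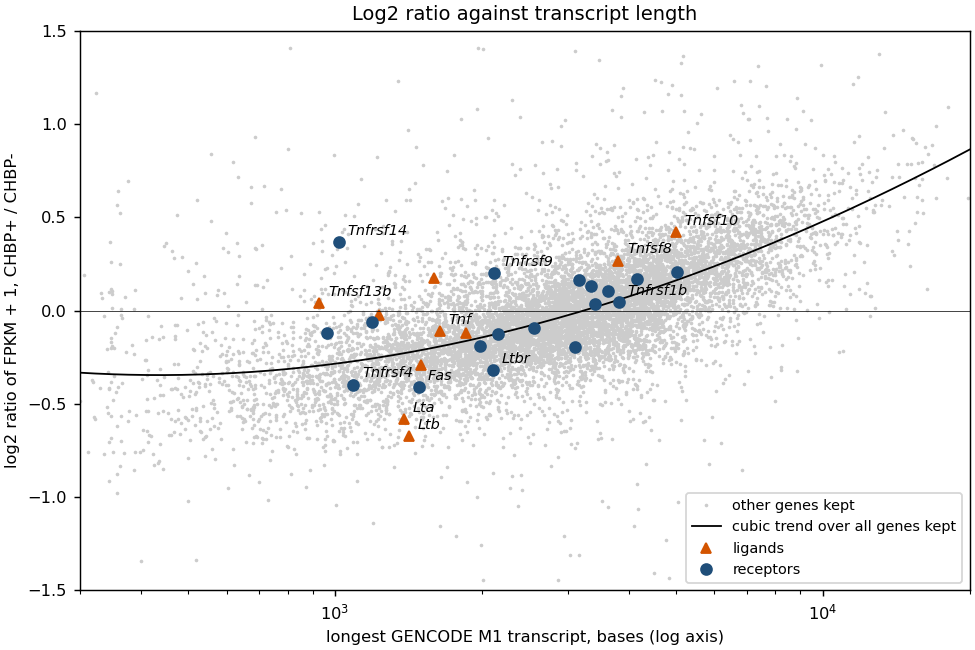
Log2 ratio of FPKM + 1 (CHBP+ over CHBP- M-MDSC) against the longest GENCODE M1 transcript (bases, log axis), with dots for other genes, separate symbols for ligands and receptors, and a line for the cubic trend over all genes. A total of 70 genes lie outside the axes, Ltb and Lta lie below the line, and Tnfrsf14, at 0.37, lies above it.

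Genes that carry TNF receptor signals were grouped in lists, whose counts stand beside the 3.42% and 2.89% of all genes. Of 17 adaptors and proximal kinases, 1 was at least 1.5-fold higher and none lower, with a median log2 ratio of 0.02. That gene was Traf3 (ENSMUSG00000021277), an adaptor that restrains the non-canonical NF-kappaB pathway by bringing the kinase NIK to degradation, with 356 and 1058 reads, or 1.07 and 3.22 FPKM (log2 ratio 1.03, read ratio 3.01, 2.67 to 3.40). With the length trend removed its log2 ratio was 0.72. NIK (Map3k14) had 562 and 505 reads (0.910, 0.805 to 1.03), and the other TRAF genes lay between a read ratio of 0.637 for Traf4 and 1.39 for Traf1.

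Of 12 ubiquitin ligases and deubiquitinases, 1 was lower and none higher (median log2 ratio -0.03). This was Tnfaip3 (A20, ENSMUSG00000019850), which NF-kappaB induces and which restrains TNF signalling, with 1709 and 944 reads, or 7.43 and 4.15 FPKM (log2 ratio -0.71, read ratio 0.559, 0.516 to 0.606), and with a log2 ratio of -0.96 once the length trend was removed. Cyld, another deubiquitinase of the pathway, had 1857 and 2438 reads (1.33, 1.25 to 1.41), with a log2 ratio of 0.38. This was 0.01 with the longest-transcript trend removed and 0.29 with the implied-length trend removed.

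None of 6 death effectors passed 1.5-fold in either direction (median log2 ratio -0.04). Cflar, the caspase-8 inhibitor c-FLIP, had 2129 and 3108 reads (1.48, 1.40 to 1.56), with a log2 ratio of 0.51 that was 0.23 once the length trend was removed, and Casp8, whose span overlaps another gene, had 2571 and 2332 reads (0.918, 0.868 to 0.972). Nor did any of 11 IKK and NF-kappaB genes (median 0.08), among them Rel with 1289 and 1792 reads (1.41, 1.31 to 1.51) and the inhibitor Nfkbia with 2984 and 2339 reads (0.794, 0.752 to 0.838). With the longest-transcript trend removed the median was -0.02, with Rel at 0.50 and Nfkbia at -0.13. With the implied-length trend removed the median was -0.09, with Rel at 0.40 and Nfkbia at -0.14. The 7 shedding and processing genes that reached 1 FPKM stayed within 1.5-fold too, with a median of 0.21. This was -0.003 with the longest-transcript trend removed and 0.09 with the implied-length trend removed. Adam17, which sheds TNF and its receptors and overlaps another gene, had 4553 and 5333 reads (1.19, 1.14 to 1.23).

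Of 8 genes for the control of Tnf mRNA that reached 1 FPKM, 1 was lower and none higher (median -0.09). This was Hnrnpd, which binds AU-rich elements, with 3160 and 1996 reads, or 15.2 and 9.72 FPKM (log2 ratio -0.60, read ratio 0.640, 0.604 to 0.677). Zfp36 (tristetraprolin), which destabilises Tnf mRNA, had 2385 and 2153 reads (0.914, 0.862 to 0.969). Of 18 genes known to be induced by TNF that reached 1 FPKM, 1 was lower and none higher, with a median of -0.19. The median was 0.01 with the longest-transcript trend removed and -0.07 with the implied-length trend removed. The lower gene was the chemokine Ccl5, with 71 and 29 reads, or 3.59 and 1.48 FPKM (log2 ratio -0.89, read ratio 0.414, 0.259 to 0.645). With the longest-transcript trend removed its log2 ratio was -0.55, short of 1.5-fold, and none of the list was then lower. With the implied-length trend removed it was -0.67, still past 1.5-fold. The read-ratio interval lay below 1 for 11 of the 18, beside 31.0% of all genes, and above 1 for 2, beside 27.9%. It included 1 for the other 5. Among these, Cxcl2 had 1882 and 1908 reads (1.03, 0.963 to 1.09) and Il6 375 and 344 reads (0.929, 0.800 to 1.08).

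**Figure D4:**
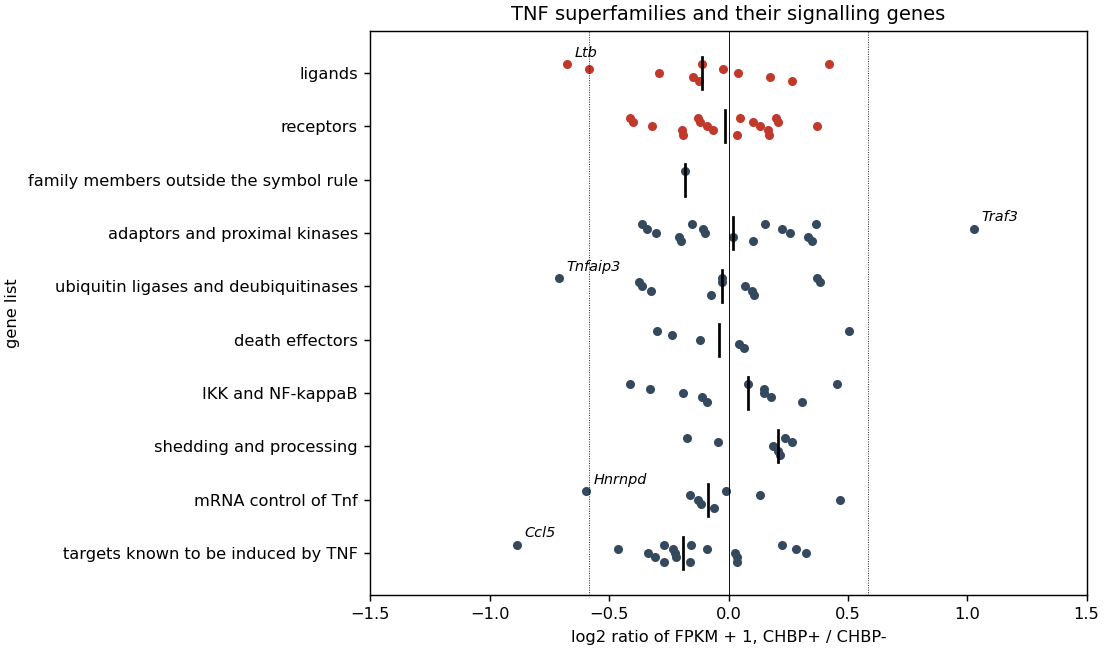
Log2 ratio of FPKM + 1 (CHBP+ over CHBP- M-MDSC) of each gene that reached 1 FPKM in either library, by list, with a bar at the median of each list and dotted lines at 1.5-fold. Ltb, Tnfaip3, Hnrnpd and Ccl5 lie below the lower line, and Traf3, at 1.03, above the upper one.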

How the data were processed

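RNA of M-MDSCs was sequenced as 1 library per group, and samples were grouped by their labels. The authors deposited raw read counts and FPKM per gene. The paper names TopHat2, mm9 and HT-seq, whereas the submitters' processing notes list HISAT2 2.0.4, Cufflinks 2.1.1, Cuffdiff and mm10. All 42 members overlap the RefSeq gene of their symbol on GRCm38. Strand and the handling of multi-mapping reads are not stated. The length implied by count and FPKM exceeded the genomic span of 4 members (Tnf, Ltb, Tnfrsf13c and Tnfrsf18), so the deposited FPKM understates such genes. GENCODE M1 gave a longest transcript for 41 members.

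With 1 library per group no model was fitted and no P value computed. Log2 ratios used a pseudocount of 1 FPKM, and the length trend was a polynomial of degree 3 in log2 length. The interval calculation was tested on simulated data. Every member that reached 1 FPKM was named with its values, other members were given by reads, and list genes past 1.5-fold were named with a few examples chosen after their values were seen. Of the marker genes, 1 is not reported here. Members and lists were chosen with earlier results of these data known. Alternatives were another pseudocount, filter or fold, CPM, median centring, TMM (edgeR 4.0.16, R 4.3.3), removal of either length trend, and leaving out overlapping genes. Versions were 3.11.15 for Python, 2.4.6 for numpy, 2.3.3 for pandas, 1.17.1 for scipy and 3.10.9 for matplotlib.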

Additional observations from a re-analysis of the deposited data

Results flagged for a closer look

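Tnfsf15 stayed under 1 FPKM and was therefore outside the counts of members. With 16 and 45 reads for CHBP- and CHBP+ M-MDSC it nevertheless had a read ratio of 2.85 (1.58 to 5.40), above the control library by more than counting error, with no replicate check. Its longest transcript has 5828 bases. The log2 ratio of 0.50 was 0.28 with the longest-transcript trend removed and 0.59 with the implied-length trend removed.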

How the results depend on the processing

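No member was 1.5-fold higher in CHBP+ M-MDSC as reported. The count was 1 with a pseudocount of 0.1 FPKM (Tnfsf10), 2 with CPM (Tnfsf10 and Tnfsf15), and 1 with the longest-transcript trend removed (Tnfrsf14), an alternative added once the data had been seen. The count of members lower, 1 (Ltb) as reported, was 3 with a pseudocount of 0.1 FPKM (with Lta and Tnfrsf4), 2 with CPM (with Lta), 0 at a fold of 2 and 0 with the longest-transcript trend removed. A smaller pseudocount or CPM gives low genes larger ratios by construction. Without a filter, at 5 FPKM or more, with median centring, TMM or the implied-length trend removed, and without overlapping genes, both counts were as reported. Over all genes, 374 higher and 316 lower became 665 and 571 with a pseudocount of 0.1 FPKM, 218 and 209 at 5 FPKM or more, 85 and 46 at 2-fold, 796 and 464 with CPM, 312 and 168 with the implied-length trend removed and 229 and 111 with the longest-transcript trend removed. Of 28 members, 6 changed sign with the last of these (Tnfsf9, Tnf, Tnfrsf18, Tnfrsf1b, Tnfrsf12a and Tnfsf14) and 8 left their counting interval, and with the implied length 5 of 29 changed sign (Tnfsf12, Tnfsf9, Tnfrsf18, Tnfrsf12a and Tnfsf14). Median centring changed the sign of Tnfsf9. No paired analysis was possible because each group has 1 library, and no replicate could be left out.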

Other observations

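Some members of the family have symbols outside the rule. Relt, a TNF receptor family member, had 974 and 839 reads, or 13.2 and 11.5 FPKM (log2 ratio -0.18, read ratio 0.872, 0.794 to 0.958). Cd40, the receptor through which T cells license antigen-presenting cells, had 69 and 60 reads (0.880, 0.612 to 1.26), and its ligand Cd40lg had 2 and 2 reads. The ectodysplasin receptor gene Eda2r had 29 and 34 reads (1.19, 0.702 to 2.02), Eda had 3 and 3 and Edar had none.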
